A study of Mus musculus with 12 samples.

Results

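The late 60S subunit maturation factors are proteins that accompany the large ribosomal subunit through its last steps in the nucleus, its export and its final assembly in the cytoplasm, the stage at which RPL10 joins it. The 9 genes, *Nmd3*, *Eif6*, *Lsg1*, *Sbds*, *Mrto4*, *Rsl24d1*, *Gtpbp4*, *Nle1* and *Mdn1*, were named as a list for their role in this process. All 9 were found among the 41255 genes of the mRNA table and the 10080 genes of the footprint table, and all 9 passed the filters on low values.

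The data came from Ba/F3 cells, an IL-3-dependent mouse lymphoid line described as pro-B cells, in which a retrovirus delivered a human *RPL10* cDNA, either wild type (*WT*) or carrying the R98S mutation, while an shRNA lowered the endogenous mouse *Rpl10* in both genotypes. Each replicate was a separate clone, with R98S clones 11, 13 and 35 compared to WT clones 28, 29 and 36, so a difference that arose in the founding cell of a clone cannot be told apart from an effect of the genotype. Each clone gave 1 library of ribosome-protected mRNA fragments (RPF) and 1 matching mRNA library, after cycloheximide at 100 µg/ml for 5 min. Translation efficiency (TE) is the log2 ratio of RPF to mRNA in a clone; since the tables were normalized separately, it has no absolute scale.

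A large subunit leaves the nucleus bound to the export adaptor NMD3. In the cytoplasm, the remaining assembly factors come off in an ordered series: MRTO4 makes way for the stalk protein RPLP0 and RSL24D1 for RPL24, the GTPase LSG1 releases NMD3 as RPL10 is seated, and SBDS with the GTPase EFL1 removes EIF6, after which the subunit can join a 40S partner. Earlier, in the nucleus, the GTPase GTPBP4 binds the particle, and the giant ATPase MDN1 pulls on NLE1 to remodel it.

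Depth differed between libraries. The recovered reads of the mRNA libraries numbered 22178094, 21217231 and 20576796 for R98S clones 11, 13 and 35, and 6617457, 21620993 and 23136595 for WT clones 28, 29 and 36. The RPF libraries held 10883086, 6827929 and 3477723 reads for the R98S clones and 7162305, 5619539 and 4611390 for the WT clones. The mRNA library of WT clone 28 was the shallowest of its kind, where a single read stands for 2.69 normalized counts, while in the other mRNA libraries it stands for 0.784 to 0.860. Even so, the member with the fewest reads in that library, *Sbds*, had 442, and the fewest reads of any member in any library were the 129 RPF reads of *Rsl24d1* in R98S clone 35.

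*Rpl10* itself, the gene both targeted and replaced, was read in every library. Its mRNA values were 2905, 1449 and 2355 normalized counts in R98S clones 11, 13 and 35, against 4501, 2345 and 2230 in WT clones 28, 29 and 36. Its RPF values were 2594, 1253 and 1612 in the R98S clones and 2605, 1597 and 1732 in the WT clones. The genotypes overlapped in both. No clone without the knockdown was analysed here, reads of the human cDNA may be assigned to the mouse gene, and 12 other annotated genes match at least 90% of bases over at least 50% of its coding sequence, so these values do not check the knockdown.

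The markers of the line were mixed. Of the B lineage genes, *Cd79a* mRNA ranged from 730.4 to 1357 normalized counts and *Cd79b* from 163.0 to 589.0 over the 6 clones, while *Pax5* was at 0 in all of them. The most abundant genes of the pro-B list were those of the IL-3 receptor subunits, *Csf2rb* (52827 to 64432 in R98S clones, 21027 to 48871 in WT clones) and *Csf2rb2* (41694 to 53531 and 19926 to 31276). *Csf2rb2* passed the test in mRNA and both passed in RPF. *Ptprc* also passed in RPF, where it went the other way, with 2615 to 3284 in R98S clones and 5365 to 8987 in WT clones. Among 7 mast cell and basophil markers, *Kit* and *Prss34* were at 0 and the most abundant was *Cpa3*, which passed in mRNA and RPF. That list summed to 863.7, 428.3 and 1468 in the R98S clones and to 209.5, 361.3 and 177.9 in the WT clones. The 6 T cell markers summed to between 135.8 and 145.8 in R98S clones and between 50.9 and 69.8 in WT clones, and the 5 myeloid markers to at most 25.8 in R98S clones and at least 31.3 in WT clones, and among them only *Cd3d* passed, in RPF. The means of *Cd3e*, *Cd3g*, *Cd4* and *Cd8a* mRNA were below 10 normalized counts, so *Lck* and *Cd3d* made up most of the T cell sum. Of the 5 myeloid markers, 4 were also below 10 on average in mRNA, all but *Lyz2*. Some markers thus differed between the genotypes, in both directions, but only *Csf2rb2* and *Cpa3* passed in mRNA and no myeloid marker passed in either assay. *Hdc*, *Ms4a2* and *Mcpt8* mRNA overlapped between the genotypes. The myeloid sums rested on few clones, with *Mpo* at 34.9 in WT clone 28 and 24.1 in R98S clone 35. *Lyz2* was at 24.7 and 47 in WT clones 29 and 36 but at 0 in WT clone 28. The part of these markers in the results on the 60S factors was not tested.

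In mRNA, 2 of the 9 factors passed the threshold, an adjusted p below 0.1 in limma fitted across 11344 genes, of which 6.94% passed. *Nmd3* fell in R98S clones, as did 3.91% of all genes tested, and *Mdn1* rose, as did 3.03%. The 9 factors did not move one way: 4 had a higher mean log2 level in R98S clones and 5 a lower one, with a median change of -0.11 against 0.01 over all genes. In RPF, none passed, against 7.76% of 9580 genes, with 5 higher, 4 lower and a median of 0.02 against 0.01. Of the 9, 3 had an unadjusted p below 0.05 in that limma fit, as did 1943 of the 9580 genes. edgeR called 0 of the 9 and 808 of all genes, and DESeq2 called 1, *Sbds*, and 1095 of all genes. In TE, limma called none, against 0.0221% of 9043 genes, and none had an unadjusted p below 0.05, which 710 of all genes had. For TE, DESeq2 called 0 of the 9 and 6 of all genes, edgeR 0 of the 9 and 2 of all genes, and the median change was 0.12 against 0.00.

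**Figure D1:**
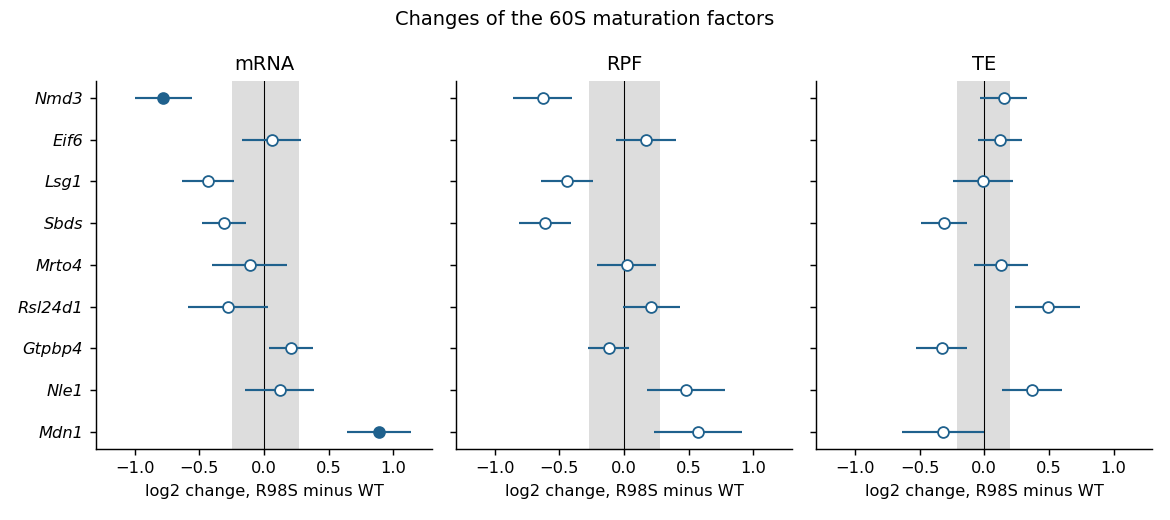
Log2 change of each factor (R98S minus WT) in mRNA, RPF and TE, with the standard error of the limma fit as bars; filled points are past an adjusted p of 0.1 and the grey band holds the middle of all genes tested, from the lower to the upper quartile. Only *Nmd3* at -0.78 and *Mdn1* at 0.89 in mRNA are filled, and in TE every factor lies between -0.33 and 0.49.

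With 3 clones against 3, an exact permutation test of a single value cannot give a two-sided p below 0.1, so groups that do not overlap are given as a description. In mRNA, R98S and WT clones kept apart for 3 of the 9 factors (*Nmd3*, *Sbds* and *Mdn1*), against 23.5% of all genes tested. In RPF it was also 3 of 9 (*Nmd3*, *Lsg1* and *Sbds*), against 25.3%, and in TE 2 of 9 (*Sbds* and *Gtpbp4*), against 14.8%. These shares of the 9 lie near or somewhat above those over all genes and are no result about the list.

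*Nmd3* encodes the adaptor that carries the large subunit through the nuclear pore, and GENCODE places it at chr3:69721985-69756373 on the plus strand of mm10. Its mRNA measured 1724, 1377 and 2435 normalized counts in R98S clones 11, 13 and 35. In WT clones 28, 29 and 36 it measured 2924, 2988 and 3350. Every R98S clone lay below every WT clone, with clone 13 the lowest and clone 35 nearest to the WT range. The means were 1845 ± 539.7 and 3088 ± 229.6 (SD, n = 3 clones each), and limma gave a log2 change of -0.78 (SE 0.22, adjusted p = 0.0873), or 0.582 of the WT level. Of all genes tested, 93.8% had a higher log2 change.

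Footprints on *Nmd3* were also lower in each R98S clone, without passing the test. They measured 621.1, 418.2 and 767.4 normalized counts in R98S clones 11, 13 and 35. In WT clones 28, 29 and 36 they measured 803.4, 971.4 and 946.1. The genotypes again did not overlap, but the log2 change of -0.63 (SE 0.23) had an adjusted p of 0.15 in limma, and it was -0.39 without R98S clone 13. The TE of *Nmd3* was -1.47, -1.72 and -1.66 in the R98S clones and -1.86, -1.62 and -1.82 in the WT clones. These ratios overlapped, and their difference was 0.15 (SE 0.18, limma adjusted p = 0.809). The difference was 0.08 without R98S clone 11 and 0.23 without WT clone 29.

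*Mdn1* encodes the ATPase that pulls assembly factors off the nuclear particle, and at 16749 coding bases in 102 exons it has by far the longest coding sequence of the 9. It lies at chr4:32657119-32775217 on the plus strand. Its mRNA measured 4794, 5087 and 3928 normalized counts in R98S clones 11, 13 and 35. In WT clones 28, 29 and 36 it measured 2315, 1804 and 3595. Every R98S clone lay above every WT clone, although R98S clone 35 and WT clone 36 came close. The means were 4603 ± 602.6 and 2571 ± 922.5 (SD, n = 3 clones each), and limma gave a log2 change of 0.89 (SE 0.25, adjusted p = 0.0881), 1.85 times the WT level. In bulk samples such as these, more cells that express a gene and more RNA in each cell cannot be told apart.

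The footprints of *Mdn1* did not separate the genotypes. They measured 2881, 3304 and 3192 normalized counts in R98S clones 11, 13 and 35. In WT clones 28, 29 and 36 they measured 3485, 1091 and 2458. The R98S clones were close together, whereas the WT clones included both the highest and the lowest value of the 6. The log2 change was 0.57 (SE 0.34, limma adjusted p = 0.382), and that of TE was -0.32 (SE 0.32, limma adjusted p = 0.772). WT clone 28 set the TE value apart, with a ratio of 0.59 where the other 5 clones ranged from -0.73 to -0.30, and without it the TE difference was 0.08. The RPF change also rested on single WT clones, at 0.09 without WT clone 29 and 0.93 without WT clone 28.

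**Figure D2:**
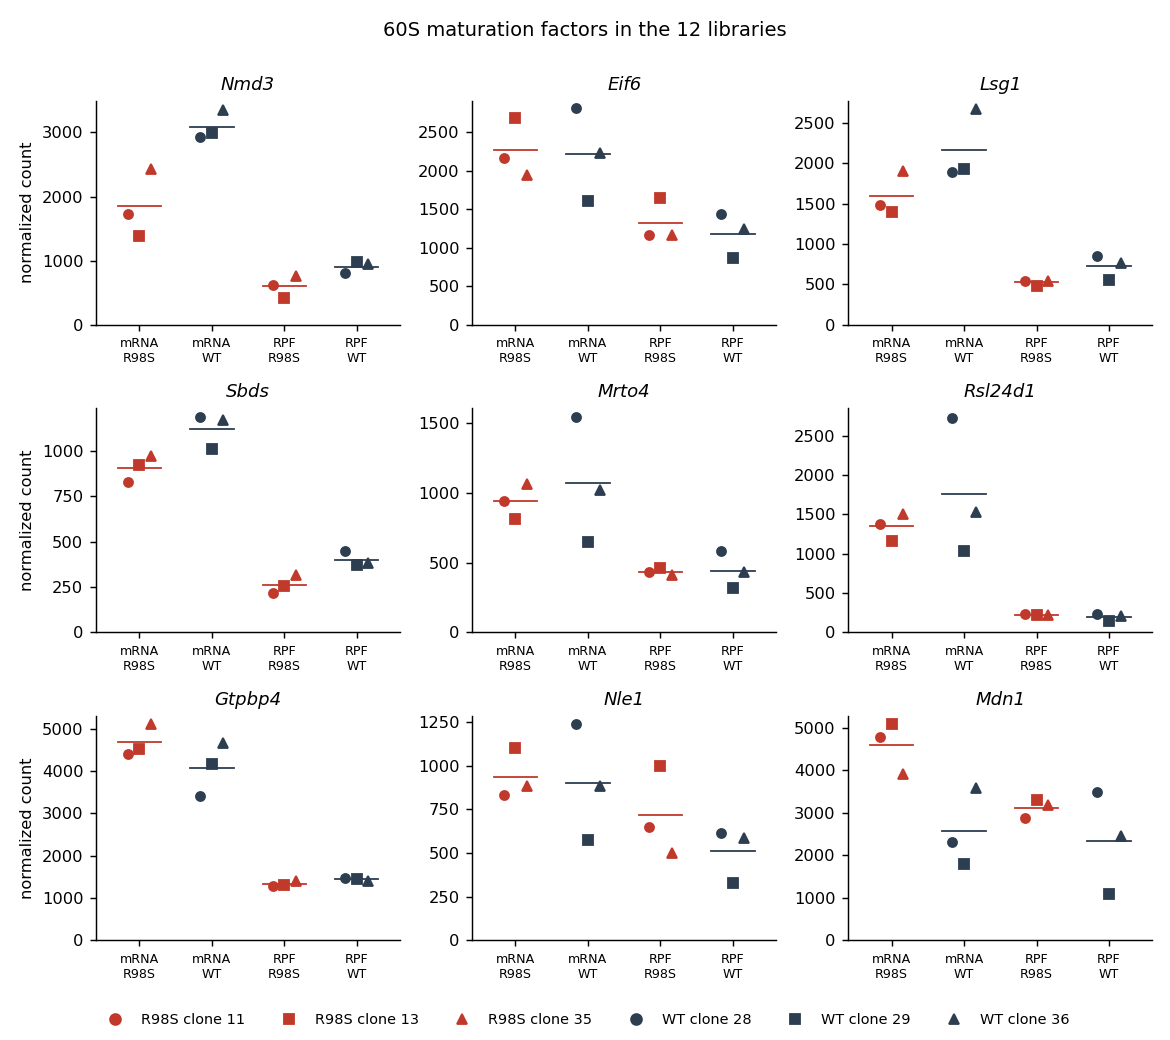
Normalized counts of the 9 factors in mRNA and RPF, with 1 point per clone, a line at the mean of each group, and axes that start at 0. *Nmd3* mRNA separates the genotypes (at most 2435 in R98S clones, at least 2924 in WT clones), while *Mrto4*, *Rsl24d1* and *Nle1* mRNA has its highest value in WT clone 28 and its lowest in WT clone 29.

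Both calls were close to the threshold and moved with the setting. With edgeR on the recovered reads the adjusted p was 0.103 for *Nmd3* and 0.102 for *Mdn1*, and with DESeq2 it was 0.0282 and 0.0236, within ranges over all 13 alternatives of 0.00486 to 0.3 and 0.0236 to 0.292. The *Nmd3* call held without R98S clone 35 (adjusted p = 0.0311) or WT clone 28 (0.0865) and was lost without R98S clone 11 (0.269), R98S clone 13 (0.3), WT clone 29 (0.144) or WT clone 36 (0.243) in limma. The *Mdn1* call held without WT clone 36 (limma adjusted p = 0.0325) and was lost without R98S clone 11 (0.262), 13 (0.292) or 35 (0.113) and without WT clone 28 (0.121) or 29 (0.185). The direction was the same in all 13 alternatives for each gene, with log2 changes of -0.52 or lower for *Nmd3* and of 0.64 to 1.16 for *Mdn1*.

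The chromosomes that carry these genes also differed between the clones. The median mRNA change over 506 tested genes of chromosome 3 was -0.29. By clone, relative to the mean of the WT clones, the chromosome 3 median was -0.05, -0.44 and -0.34 in R98S clones 11, 13 and 35, and between -0.05 and 0.02 in the WT clones. *Nmd3* on the same scale was at -0.84, -1.16 and -0.34. It therefore lay well below its chromosome in clones 11 and 13 and at the chromosome median in clone 35. The median of the 711 tested genes of chromosome 4 was 0.19, and by clone 0.19, 0.12 and 0.20 in the R98S clones, where *Mdn1* stood at 0.96, 1.04 and 0.67. After each clone's chromosome medians were removed, the log2 change was -0.52 for *Nmd3* (limma adjusted p = 0.263) and 0.71 for *Mdn1* (0.17), so neither passed. In RPF, the same step gave -0.34 for *Nmd3* (limma adjusted p = 0.412) and 0.38 for *Mdn1* (0.583). Whether copy number differs between the clones was not tested.

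**Figure D3:**
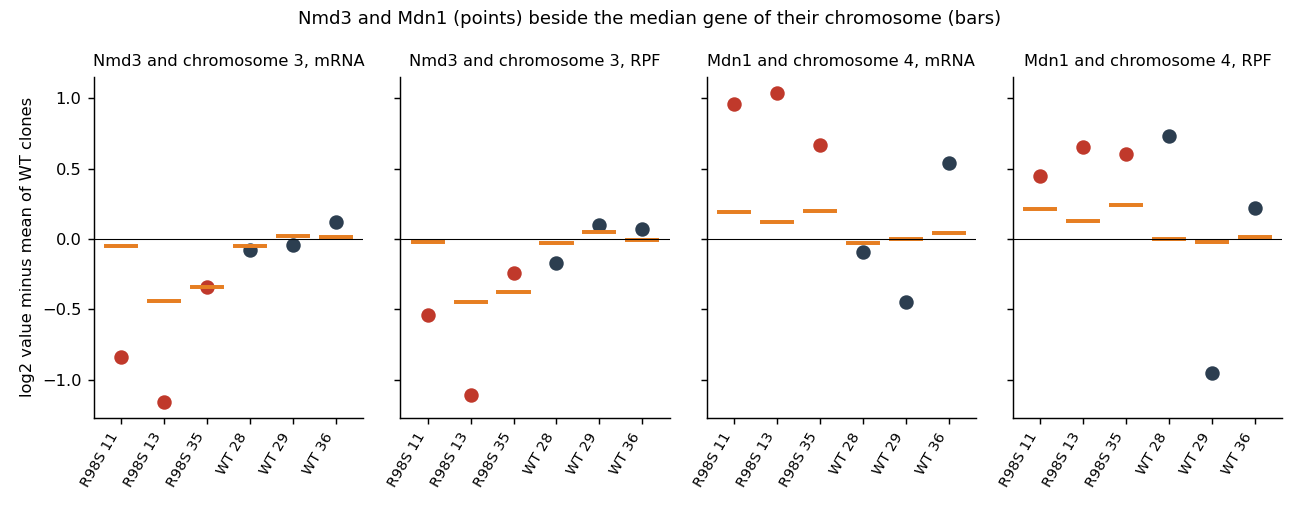
Log2 value of *Nmd3* and *Mdn1* (points) and the median of all tested genes on the same chromosome (orange bars) in each clone, relative to the mean of the WT clones, for mRNA and RPF. The bars of chromosome 3 drop to -0.44 and -0.34 in R98S clones 13 and 35 but not in clone 11 (-0.05), where *Nmd3* mRNA is at -0.84.

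Promoter sequence from RefSeq (GRCm38.p6) was matched for 7 of the 9 factors, all but *Eif6* and *Sbds*. Those of the pair that passed the mRNA test are shown, the 250 bases before the RefSeq start, 5′ to 3′ on the coding strand, at chr3:69721805-69722054 for *Nmd3* and chr4:32656869-32657118 for *Mdn1*, both on the plus strand. For *Nmd3* the GENCODE gene begins earlier than the RefSeq start, so the end of its window lies within the span given above. Capitals mark matches on either strand to the E-box CACGTG, the GC box GGGCGG, the TATA motif TATAAA or the CCAAT box, whose name is its letters, and no matches overlapped.
Nmd3: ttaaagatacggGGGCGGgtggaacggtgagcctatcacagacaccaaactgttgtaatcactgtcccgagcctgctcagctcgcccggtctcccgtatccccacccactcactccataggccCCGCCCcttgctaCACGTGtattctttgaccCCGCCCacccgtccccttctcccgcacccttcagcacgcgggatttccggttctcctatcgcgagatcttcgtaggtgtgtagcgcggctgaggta
Mdn1: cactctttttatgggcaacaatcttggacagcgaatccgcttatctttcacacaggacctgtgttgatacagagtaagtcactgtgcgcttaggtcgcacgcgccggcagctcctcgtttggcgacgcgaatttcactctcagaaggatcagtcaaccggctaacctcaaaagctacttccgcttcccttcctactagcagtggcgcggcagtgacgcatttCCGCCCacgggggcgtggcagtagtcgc

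The *Nmd3* promoter held 1 E-box, between GC boxes, and 3 GC boxes in all, and that of *Mdn1* held 1 GC box. Of the 7 promoters, *Nmd3* was the only one with an E-box, whereas 6.02% of all 32851 promoters of that length have one. A GC box was found in 3 of 7 (*Nmd3*, *Mdn1* and *Gtpbp4*) against 32.7%, a CCAAT box in 1 of 7 (*Nle1*) against 33.8%, and a TATA motif in none against 12.4%. G and C made up 60% of the bases for *Nmd3* and 55.2% for *Mdn1*, both above the median of 52.4% over all promoters. Such a match is a string of letters and says nothing on binding.

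*Lsg1* encodes the GTPase that frees NMD3 from the subunit once RPL10 is in place. Its mRNA measured 1483, 1403 and 1907 normalized counts in R98S clones 11, 13 and 35, against 1893, 1928 and 2670 in WT clones 28, 29 and 36. Its RPF measured 547.2, 484.4 and 544.1 in the R98S clones and 851.2, 557.0 and 763.0 in the WT clones. R98S clones were at the low end in both assays, though R98S clone 35 reached the WT range in mRNA. The log2 changes were -0.43 in mRNA (SE 0.20, limma adjusted p = 0.303) and -0.44 in RPF (SE 0.20, adjusted p = 0.24), and that of TE was -0.01. With a clone left out, the mRNA change ranged from -0.57 to -0.27 and the RPF change from -0.62 to -0.31. The mRNA change was -0.68 with library weights.

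*Sbds*, mutated in Shwachman-Diamond syndrome, encodes the cofactor that opens the way for EIF6 release. Its mRNA measured 827.2, 924.6 and 973.2 normalized counts in R98S clones 11, 13 and 35, against 1187, 1010 and 1172 in WT clones 28, 29 and 36. Its RPF measured 215.9, 258.1 and 315.7 in the R98S clones and 446.1, 371.7 and 380.8 in the WT clones. No R98S clone reached a WT clone in either assay. The log2 change was -0.31 in mRNA (SE 0.17, limma adjusted p = 0.394) and -0.61 in RPF (SE 0.20, adjusted p = 0.121), which was the smallest adjusted p of the 9 in RPF. Its TE was -1.93, -1.84 and -1.62 in the R98S clones and -1.41, -1.44 and -1.62 in the WT clones, R98S clone 35 and WT clone 36 being equal to 2 decimals, with a difference of -0.31 (SE 0.18, limma adjusted p = 0.68).

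*Eif6* encodes the anti-association factor that keeps an unfinished subunit from joining a 40S. Its mRNA measured 2169, 2686 and 1951 normalized counts in R98S clones 11, 13 and 35, against 2814, 1607 and 2231 in WT clones 28, 29 and 36. Its RPF measured 1163, 1643 and 1162 in the R98S clones and 1442, 865.2 and 1243 in the WT clones. The genotypes overlapped in both, although R98S clone 13 had the highest and WT clone 29 the lowest footprints. The log2 changes were 0.06 (SE 0.23) and 0.17 (SE 0.23), and that of TE was 0.12 (SE 0.17), with limma adjusted p of 0.93, 0.714 and 0.855.

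*Mrto4* and *Rsl24d1* encode the placeholders for RPLP0 and RPL24. R98S clones ranged from 813.2 to 1066 normalized counts of *Mrto4* mRNA, and WT clones from 647.5 to 1544. That of *Rsl24d1* ranged from 1162 to 1510 and from 1033 to 2720. In both genes the WT clones spanned the R98S clones, with WT clone 28 at the top and WT clone 29 at the bottom. The TE of *Rsl24d1* was -2.52, -2.37 and -2.80 in R98S clones 11, 13 and 35 and -3.52, -2.77 and -2.87 in WT clones 28, 29 and 36, a difference of 0.49 (SE 0.25, limma adjusted p = 0.648) that was 0.26 without WT clone 28. Processed pseudogenes match 99.6% of the *Rsl24d1* coding sequence and up to 98.3% of that of *Mrto4*, and reads that align equally well to both places can be lost to the mapping quality filter, so the levels of these genes, footprints above all, are uncertain. *Eif6* has a pseudogene at 93.1% identity, and none of at least 90% over at least 50% of the coding sequence was found for the other 6.

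*Gtpbp4* had the steadiest footprints of the 9. Its RPF values ranged from 1269 to 1475 normalized counts over all 6 clones, with means of 1324 ± 65.9 in R98S and 1435 ± 42.5 in WT clones (SD, n = 3 each). Its mRNA ranged from 4391 to 5112 in R98S clones and from 3410 to 4653 in WT clones. The mRNA change of 0.21 (SE 0.17) and the RPF change of -0.12 (SE 0.16) had opposite signs. With a clone left out they ranged from 0.09 to 0.31 and from -0.16 to -0.09. The mRNA change of *Gtpbp4* was 0.03 with library weights, and its RPF change was -0.02 with chromosome medians removed. Its TE was -1.79, -1.80 and -1.87 in R98S clones 11, 13 and 35 and -1.21, -1.53 and -1.74 in WT clones 28, 29 and 36, so that each R98S clone was below each WT clone. The TE difference of -0.33 (SE 0.20) had a limma adjusted p of 0.685, and it was -0.18 without WT clone 28.

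*Nle1* encodes the adaptor on which MDN1 acts. R98S clones held 830.4 to 1100 normalized counts of its mRNA, WT clones 575.7 to 1241. Its RPF measured 649.3, 1001 and 497.1 in R98S clones 11, 13 and 35 and 615.2, 328.0 and 586.4 in WT clones 28, 29 and 36. R98S clone 13 was the highest and WT clone 29 the lowest in RPF, and the genotypes overlapped. The log2 changes were 0.12 (SE 0.27) in mRNA, 0.48 (SE 0.30) in RPF and 0.37 (SE 0.23) in TE, with limma adjusted p of 0.873, 0.397 and 0.687. With a clone left out they ranged from -0.17 to 0.38, from 0.19 to 0.71 and from 0.21 to 0.56.

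The factors did not vary as 1 block across the clones. On log2 values centred within each assay, over the 12 libraries, the 36 pairs of members had Pearson correlations from -0.64 (*Nmd3* and *Mdn1*) to 0.94 (*Mrto4* and *Rsl24d1*), with a median of 0.18, and 23 were above 0. Those libraries come from 6 clones, so the correlations are a description. *Eif6*, *Mrto4*, *Nle1* and *Rsl24d1* went together, with correlations from 0.63 to 0.94. *Nmd3*, *Lsg1* and *Sbds* formed another set, at 0.70 to 0.75. Both sets were chosen after the values were seen. In mRNA, WT clone 28 was the highest of the 6 clones for 5 factors, 4 of them the *Eif6* set, and WT clone 29 was the lowest for 5, the same 4 and *Mdn1*. In RPF, WT clone 29 was again the lowest for those 5, but WT clone 28 was the highest only for *Mrto4* of the set, with R98S clone 13 the highest for *Eif6* and *Nle1* and R98S clone 11 for *Rsl24d1*. In mRNA, the WT clones thus spanned the R98S clones for each gene of the *Eif6* set.

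**Figure D4:**
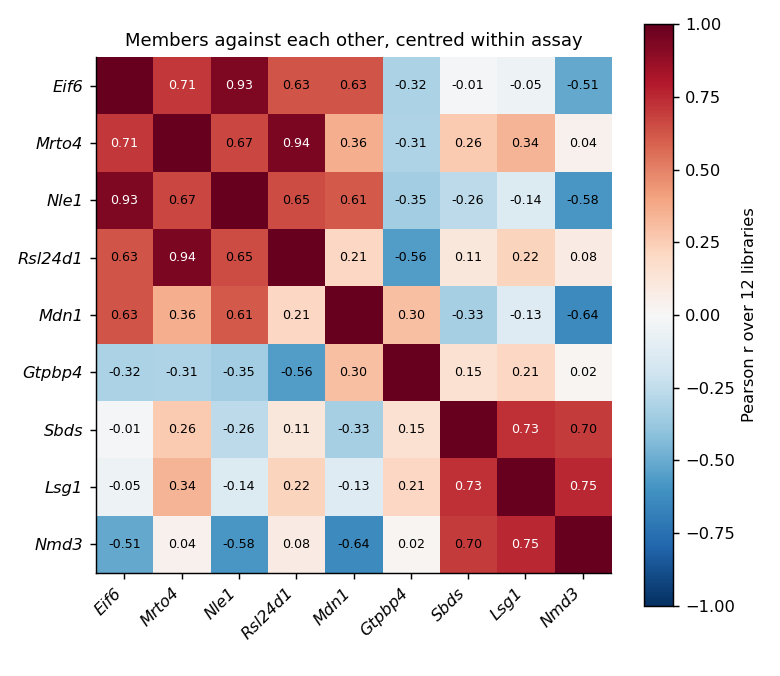
Pearson correlation of each pair of factors over the 12 libraries, on log2 values centred within assay; red is positive and blue negative. *Eif6*, *Mrto4*, *Nle1* and *Rsl24d1* form a red block at the upper left and *Sbds*, *Lsg1* and *Nmd3* another at the lower right, with -0.58 between *Nmd3* and *Nle1*.

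Of 9034 other genes, the 5 most like the mean of the 9 factors were *Dlst*, *Rrs1*, *Usp39*, *Adrm1* and *Ncdn*, with Pearson correlations of 0.96, 0.95, 0.94, 0.94 and 0.93 over the 12 libraries. This mean does not stand for each factor, as *Mrto4* correlated with it at 0.91 but *Nmd3* at 0.10 and *Gtpbp4* at -0.07. *Rrs1*, a factor of 5S RNP assembly, is itself in the lists of related genes. Singly, the nearest genes were *Mtfr1* for *Nmd3* (0.96), *C1qbp* for *Eif6* (0.96), *Ss18* for *Lsg1* (0.96), *Cmtr2* for *Sbds* (0.98) and *Grwd1* for *Mrto4* (0.94). For the others they were *Ran* for *Rsl24d1* (0.98), *Npc1* for *Gtpbp4* (0.92), *Nsfl1c* for *Nle1* (1.00) and *Fndc3b* for *Mdn1* (0.97). No factor had another of the 9 as its nearest gene, but the 9 are few beside the 9034 other genes, so this is no result about the list. Each of these correlations is the highest over all those genes, on libraries from 6 clones, and is a description.

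Levels of different genes were compared per length, RPF per kb of counted coding sequence and mRNA per kb of the RefSeq transcript. *Eif6* had the highest RPF level, with a mean of 1848 ± 392.7 normalized counts per kb (SD over 6 clones), at percentile 93.6 of 9373 genes. *Gtpbp4* followed at 747.6 ± 42.5, and *Mdn1* was the lowest at 163.9 ± 52.9, near the median of all genes, 176.9. Between them lay *Mrto4* (665.9), *Nmd3* (519.7), *Rsl24d1* (492.4), *Sbds* (478.2), *Nle1* (438.3) and *Lsg1* (333.1). From *Gtpbp4* to *Lsg1*, each neighbour in this order overlapped the next over the 6 clones, while *Eif6* and *Mdn1* stood clear of theirs. The order among these differed by genotype, with *Nle1* at 511.9 ± 184.8 above *Nmd3* (414.8 ± 120.8) and *Sbds* (379.9 ± 72.3) in R98S clones, and at 364.7 ± 113.2 below *Lsg1* (386.0 ± 80.5) in WT clones. In mRNA per kb, *Gtpbp4* (1697 ± 221.0), *Eif6* (1500 ± 301.9) and *Nmd3* (1418 ± 445.6) were highest and *Mdn1* (199.7 ± 73.1) lowest. This order holds for RefSeq transcript lengths only, since GENCODE lists longer transcripts for *Nmd3* and *Gtpbp4*, with which it could differ. It also differed by genotype, as *Nmd3* averaged 1775 ± 132.0 in WT clones, above *Gtpbp4* (1579 ± 242.5) and *Eif6* (1483 ± 404.0), and 1061 ± 310.4 in R98S clones, below *Gtpbp4* (1814 ± 148.1) and *Eif6* (1518 ± 252.5).

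**Figure D5:**
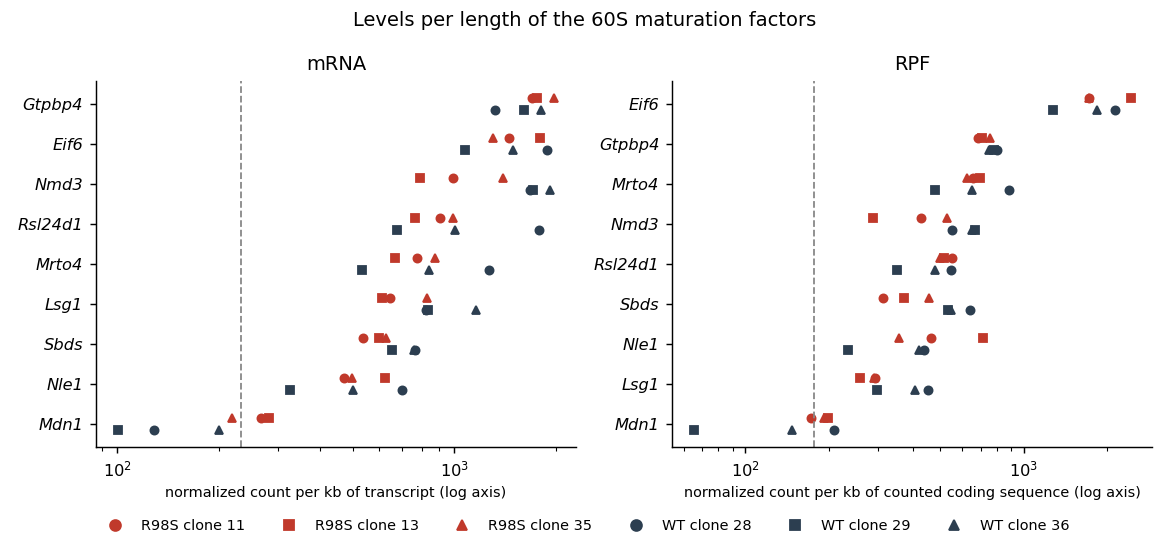
Normalized counts per kb of transcript (mRNA) and per kb of counted coding sequence (RPF) on log axes, 1 point per clone, in order of the mean over 6 clones; the dashed line is the median of all genes. *Eif6* leads the footprints at 1848 and *Mdn1*, at 163.9, lies beside the median of 176.9.

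The ribosomal proteins that meet these factors on the subunit, RPL10, RPLP0, RPL24, RPL23 and RPL12, did not pass the test in any assay. Their median log2 change was 0.04 in mRNA, 0.25 in RPF and 0.26 in TE, against 0.01, 0.01 and 0.00 over all genes. WT clone 28 weighed on these values, and without it the changes of the 5 genes lay between -0.10 and 0.35 in RPF and between -0.14 and 0.25 in TE. *Rplp0*, whose place MRTO4 holds, had RPF values of 3412, 3451 and 3014 normalized counts in R98S clones 11, 13 and 35, against 2302, 2565 and 2994 in WT clones 28, 29 and 36. These did not overlap, with a log2 change of 0.33 (SE 0.18, limma adjusted p = 0.316). *Rpl24* mRNA was 1120 in WT clone 28 and between 245.7 and 289.7 in the other 5 clones, so its log2 change of -0.65 (SE 0.49) rests on that library and was 0.04 without it. Each of these genes has at least 3 near-identical copies in the annotation, and their values are uncertain.

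The other genes of large subunit assembly, 33 in 6 lists with those ribosomal proteins, were all tested in each assay. In mRNA 1 of the 33 passed, *Tex10*, which rose, and none fell, beside 3.03% and 3.91% of all genes. *Tex10* belongs to the complex with PELP1 and WDR18 that acts beside MDN1 on the nuclear particle. Its mRNA measured 1776, 1914 and 1625 normalized counts in R98S clones 11, 13 and 35, against 1319, 1051 and 1192 in WT clones 28, 29 and 36. The genotypes did not overlap, with a log2 change of 0.58 (SE 0.17) and a limma adjusted p of 0.0996, at the very edge of the threshold and lost without any clone other than WT clone 28. Like *Mdn1*, it lies on chromosome 4, and its change was 0.40 (adjusted p = 0.252) with the chromosome medians removed.

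In RPF and TE, limma called none of the 33, against 7.76% and 0.0221% of all genes. The smallest adjusted p in RPF was 0.108, for *Tma16* of the late nuclear factors, at a log2 change of -0.78 (SE 0.24). The 9 genes of cytoplasmic maturation and export, which include the *Eif6* releasing GTPase *Efl1* and the exportin *Xpo1*, had median changes of 0.00 in mRNA, -0.09 in RPF and -0.06 in TE. For the 7 nuclear GTPases and late nuclear factors these were 0.05, -0.22 and -0.24, and for the 4 genes of 5S RNP assembly -0.07, -0.17 and -0.14. They were 0.18, 0.18 and -0.07 for the 5 genes of the *Tex10* list and 0.43, 0.40 and -0.03 for the 3 of the PES1-BOP1-WDR12 complex. Over all 33, the medians were 0.04 in mRNA, -0.08 in RPF and -0.06 in TE, close to those of all genes.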

How the data were processed

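Ribosome footprints and mRNA were sequenced from 3 R98S and 3 WT clones. The authors deposited 1 table of signal values for each assay, gene counts divided by DESeq2 size factors, after Bowtie2 removal of ribosomal and transfer RNA and alignment to mm10 with TopHat2 2.0.11 at a mapping quality of at least 10. They merged 3 technical replicates per footprint library and counted footprints in coding sequence without the first 15 and last 5 codons. In each library 100% of values above 0 were whole multiples (within 0.001) of the smallest, so whole reads were recovered.

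Changes were fitted on log2(value + 1) with limma 3.58.1 (R 4.3.3, trended variance) across all genes with a mean of at least 10 normalized counts, and TE on the log2 ratio per clone for genes of at least 10 in all 12 libraries. P-values were adjusted by Benjamini-Hochberg over all genes tested, with a threshold of 0.1. The study's own TE tool, Babel, was not run. edgeR 4.0.16 and DESeq2 1.42.0 on recovered reads were alternatives, as were a pseudocount of 10, no filter, TMM scaling, library weights, chromosome medians removed, no pairing and each clone left out. The libraries of a clone are paired by its number in the labels; their deviations from the genotype means correlated at 0.218 to 0.681 over 9043 genes. The fits were tested on simulated data; the condition for passing was loosened after a first draw had failed it, and on mRNA all 3 tools, limma among them, made more false calls there than the threshold allows, DESeq2 the most.

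The named genes are the 9 factors, genes of fixed lists that passed the threshold, the ribosomal proteins they meet, and the genes most like them by Pearson correlation over the genes of the TE fit. *Tma16* and the genes named as the ends of ranges were picked after their values were seen. The members and lists were chosen with earlier results of these data known. Symbols were matched to GENCODE (37897 of 41255 for mRNA, 10063 of 10080 for RPF) for positions, lengths came from RefSeq, and near-identical copies were sought with blastn 2.17.0. *Efl1* is listed in the tables as *Eftud1* and *Nop53* as *Gltscr2*.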

Additional observations from a re-analysis of the deposited data

How the results depend on the processing

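The number of genes called depended on the setting. For mRNA it was 787, and 1283 with DESeq2, 2959 with library weights and 315 to 1113 with 1 clone left out. For RPF it was 743, and 1799 with library weights and 229 to 1148 with 1 clone left out. For TE it was 2, and 6 with DESeq2, 4 without the filter, 796 with library weights and 0 to 3 with 1 clone left out. With the TE fit not paired by clone, without the block, it was 3, and this changed no call among the 9 factors.

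Of the 9 factors, 2 were called in mRNA, and 0 with edgeR, 0 with chromosome medians removed, 1 without the filter (*Mdn1*), 4 with library weights (*Nmd3*, *Lsg1*, *Sbds* and *Mdn1*) and 0 to 1 with a clone left out. In RPF 0 were called, and 1 with DESeq2 (*Sbds*), 3 with library weights (*Nmd3*, *Lsg1* and *Sbds*) and 0 to 2 with a clone left out (*Nmd3* and *Sbds* without R98S clone 35). In TE 0 were called in each of the 14 alternatives. The median change of the 9 ranged with a clone left out from -0.38 to 0.10 in mRNA, from -0.11 to 0.24 in RPF and from -0.01 to 0.12 in TE. No scaling moved the median of all genes by more than 0.1.

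Changes of sign were seen only where the gene was not called in that assay, which includes the TE of *Mdn1*. With chromosome medians removed the log2 change was -0.05 for *Eif6* and -0.01 for *Rpl12* in mRNA, -0.17 for *Mrto4* and 0.04 for *Rpl10* in RPF, and 0.01 for *Lsg1* in TE. With library weights it was 0.01 for *Rpl10* in mRNA and, in TE, 0.23 for *Lsg1*, 0.03 for *Mdn1*, -0.06 for *Rpl24* and -0.03 for *Rpl12*. With DESeq2 and with edgeR it was -0.02 for *Mrto4* in RPF. With a clone left out, mRNA changes ranged from -0.16 to 0.25 for *Eif6*, -0.43 to 0.20 for *Mrto4*, -0.60 to 0.10 for *Rsl24d1*, -0.17 to 0.38 for *Nle1*, -0.05 to 0.14 for *Rplp0*, -1.02 to 0.04 for *Rpl24* and -0.03 to 0.29 for *Rpl12*. RPF changes ranged from -0.04 to 0.33 for *Eif6*, -0.20 to 0.24 for *Mrto4* and -0.44 to 0.08 for *Rpl10*, and TE changes from -0.12 to 0.21 for *Lsg1*, -0.01 to 0.26 for *Mrto4*, -0.57 to 0.08 for *Mdn1*, -0.14 to 0.69 for *Rpl24* and -0.14 to 0.39 for *Rpl12*. The cause was not tested. With 3 clones per genotype, and 129 to 267 RPF reads of *Rsl24d1* in all libraries but that of R98S clone 11, modest changes of these genes may pass unseen.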
